A study of Mus musculus with 3 samples.

Results

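The small-intestinal epithelium of the mouse was examined for 8 tight junction genes, the claudins Cldn2, Cldn15, Cldn3, Cldn4, Cldn7 and Cldn23, the occludin gene Ocln and the zonula occludens gene Tjp1. They were taken by symbol from the 31053 genes counted in each library. The data are 3 single-cell libraries, with the duodenum, jejunum and ileum of wild-type male C57BL/6N mice aged 12 weeks giving 1 each. Cells of 3 mice were pooled, and no segment had a second sample, so that differences between segments could be described but not tested. The sources do not say that the segments came from different animals, so the 3 libraries may share the same mice and are not known to be independent. The cells had been detached in a solution with EDTA and DTT and sorted as propidium iodide-negative, and the suspension also held intraepithelial immune cells.

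Tight junctions close the space between neighbouring epithelial cells near their apical side and decide which ions and molecules pass between the cells. Claudins are membrane proteins that form this contact. Cldn2 and Cldn15 form channels for small cations and are known from the intestine, Cldn3 and Cldn4 are mostly described as sealing claudins, and Cldn7 also binds the adhesion protein Epcam along the lateral membrane. Occludin is a second kind of membrane protein at the junction, and Tjp1 encodes ZO-1, a scaffold that ties claudins to the actin skeleton. Epithelial cells are born in crypts and move up the villus, where enterocytes mature until they are shed at the tip.

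Within the limits on quality, 16686 of 27235 barcodes were kept, 4255 duodenal, 4360 jejunal and 8071 ileal, with 57079945, 58186946 and 66148396 UMIs (counted molecules). These were 44.8%, 53.6% and 84.1% of the barcodes of each library. The part of this uneven selection in the differences between segments was not tested. The median depth was 12424, 11737 and 5536 UMIs, and the median share of mitochondrial UMIs 27.1%, 27.2% and 11.1%, so that depth and mitochondrial share moved with the segment. The ratios of ileum to duodenum in enterocytes are also given without mitochondrial UMIs. The other comparisons of segments rest on all UMIs, and the part of mitochondrial share in them was not tested. The part of depth in the differences between segments was not tested. Pairs of libraries shared 4 to 12 kept barcodes. Cells were clustered without the junction genes and named by marker genes. The tested classes were enterocytes (10561 cells), early enterocytes (1126), stem and proliferating cells, here ISC/proliferating (224), goblet cells (749), tuft cells (301) and enteroendocrine cells, EECs (171). Paneth cells (24) were too few for a test, and 1684 cells stayed unnamed. Cells of a group were summed within each library, and a level is the number of a gene's UMIs in 10000 UMIs of that sum. Levels are given in the order duodenum, jejunum, ileum, and are compared within a gene, not between genes, since the counts come from 3′ ends. Their intervals cover counting error at 95% and nothing else, and at 0 UMIs they end at the limit of 3 counts.

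All 8 genes were found in the GENCODE M21 annotation of GRCm38. Cldn4 (ENSMUSG00000047501, chromosome 5, 134945119 to 134946934, minus strand) and Cldn3 (ENSMUSG00000070473, chromosome 5, 134986214 to 134987472, plus strand) each have 1 exon and lie 39280 bases apart, with no protein-coding gene between them. Cldn3 overlaps Wbscr25, an antisense gene that was also counted. Cldn15 (ENSMUSG00000001739) lies on the same chromosome at 136966616 to 136975858, plus strand. Cldn2 (ENSMUSG00000047230) is at 139800828 to 139811386 of chromosome X, Cldn7 (ENSMUSG00000018569) at 69964779 to 69967885 of chromosome 11, both on the plus strand. Cldn23 (ENSMUSG00000055976) is at 35824712 to 35826559 of chromosome 8, Ocln (ENSMUSG00000021638) at 100496507 to 100552718 of chromosome 13 and Tjp1 (ENSMUSG00000030516) at 65296165 to 65527781 of chromosome 7, all on the minus strand.

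Of the 8 genes, Cldn2 and Cldn4 had the largest fall and rise along the villus, and Cldn15 was the channel claudin whose course was not the same in the 3 libraries. The 250 bases before the RefSeq start of these genes on GRCm38.p6 are therefore shown, 5′ to 3′ on the strand of the gene. Capitals mark matches to 6 motifs searched on both strands. The letters searched were TATAAA for the TATA box, GTTAAT for HNF1, CAAAGTCCA for HNF4, TTTATNG for CDX, AGATAA for GATA and, as a sequence that is its own reverse complement, TGANTCA for AP-1. No matches overlapped in the sequences shown.
Cldn2, chrX:139800558-139800807, plus strand: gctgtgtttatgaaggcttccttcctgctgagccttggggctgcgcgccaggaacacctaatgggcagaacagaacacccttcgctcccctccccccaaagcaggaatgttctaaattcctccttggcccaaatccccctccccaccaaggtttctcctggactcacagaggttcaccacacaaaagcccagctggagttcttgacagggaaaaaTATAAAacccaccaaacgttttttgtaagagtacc
Cldn4, chr5:134946935-134947184, minus strand: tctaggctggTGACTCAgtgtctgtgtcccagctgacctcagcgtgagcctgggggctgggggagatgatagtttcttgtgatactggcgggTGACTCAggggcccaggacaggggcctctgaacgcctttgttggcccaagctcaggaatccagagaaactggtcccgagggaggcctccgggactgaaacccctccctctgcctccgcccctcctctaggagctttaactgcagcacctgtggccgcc
Cldn15, chr5:136967619-136967868, plus strand: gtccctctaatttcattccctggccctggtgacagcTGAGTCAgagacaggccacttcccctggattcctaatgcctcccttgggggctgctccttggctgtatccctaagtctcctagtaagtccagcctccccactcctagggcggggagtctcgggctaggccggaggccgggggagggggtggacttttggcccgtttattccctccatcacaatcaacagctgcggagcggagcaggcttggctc
Cldn4 held the AP-1 letters at 2 places, which begin 240 and 158 bases before the start, and Cldn15 held them once, 214 bases before it. Among all promoters of this length, 6.75% held them at least once. Cldn2 held the TATA letters, beginning 35 bases before the start, as did 12.4% of promoters. The HNF1, HNF4, CDX and GATA letters were in 6.43%, 0.384%, 9.81% and 9.99% of promoters and in none of these 3. The promoter sequences of Cldn3, Cldn7, Ocln and Tjp1 held none of the 6 motifs, and Cldn23 was not matched.

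The first comparison asked how the genes are distributed along the villus. The 11687 enterocytes and early enterocytes were ordered by a score of 8 genes known from the villus top and 9 known from its bottom and divided within each library into 4 zones of equal cell number, numbered from 1 at the bottom to 4 at the top. Klf4 and Krt20, top genes outside the score, followed the order. Klf4 went from 1.19, 1.85 and 2.01 in the bottom zone to 8.27, 10.6 and 9.76 in the top zone, and Krt20 from 4.74, 7.99 and 9.05 to 33.3, 44.0 and 44.2. Levels of the other check genes, for the middle among them, are not given here. The cluster led by Slc2a2, a check gene for the middle, had its median in zone 2 in the duodenum. In the jejunum and the ileum its median was in zone 1. The stem cell gene Olfm4 was between 0.0228 and 0.0350 in the bottom zone, against 20.3 to 26.1 in ISC/proliferating cells, which were left out of the zones by their cluster, so that this value follows from that choice and gives no position. A cluster with 49.9%, 47.2% and 43.0% of the cells of the top zone was led by hemoglobin genes, whose UMIs came from 12, 36 and 57 of its 528, 755 and 945 cells. In the top zone the 4 hemoglobin genes summed to 0.0247, 0.0343 and 0.0747 UMIs per 10000, against up to 35.7 in a lower zone. Without this cluster, an alternative chosen after seeing the data, 7 of the 8 genes were called between the zones, against 66.0% of all genes in that fit. In the test over the 3 libraries (edgeR quasi-likelihood, library as a block, 12 sums), 7 of the 8 genes differed between the top and bottom zone, 6 higher and 1 lower at the top. The background was high, as 68.4% of all 11208 genes tested passed the same threshold, 32.7% higher and 35.7% lower, so the count of called genes says little in itself and the sizes matter more. The direction depends on the scaling. Without TMM scaling, which sets the sums to a common level by the bulk of their genes, 17.9% of all genes were higher and 52.2% lower, and 5 of the 8 genes were higher and 2 lower, with Cldn3 no longer called and Cldn15 called lower. The median log2 fold change of the 8 genes was 1.38, and that of all genes -0.08.

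Cldn4 changed most. Its level was 0.0216, 0.0520 and 0.219 in the bottom zone, 0.0211, 0.190 and 0.959 in zone 2, 0.0526, 1.82 and 6.12 in zone 3 and 2.61, 7.03 and 11.8 in the top zone. Every top value lay far above every bottom value. The log2 fold change was 7.38 ± 0.87 (SE), with an edgeR adjusted p of 3.5e-05 over all genes and 1.9e-17 to 0.016 across the alternatives. T cells are not epithelial and serve as a background, and in them Cldn4 stood at 0, 0.215 and 0.635. The bottom-zone values of the jejunum and the ileum were thus below those of T cells and cannot be told apart from background of free RNA. The duodenal 0 came from 35 T cells, where the limit of 3 counts lies above the bottom-zone level. After thinning each cell to 800 UMIs, Cldn4 was seen in 15.3%, 40.8% and 52.8% of top-zone cells and in 0%, 0.917% and 2.20% of T cells (47.7%, 89.5% and 92.4% against 0%, 4.59% and 8.80% before thinning, at median depths of 8752, 11279 and 7336 against 4089, 4624 and 4239 UMIs).

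The rank along the score at which Cldn4 appeared was not the same in the 3 libraries. The bins are ranks of cells within a library and not measured positions, and the same cluster could fall in different zones, as did a cluster of 1558 cells with its median in zone 3 in the duodenum and the jejunum and in zone 2 in the ileum. With the score divided into 10 bins, the ileum reached 1.45 in bin 5 and 7.05 in bin 7, the jejunum 0.255 and 1.96, and the duodenum 0.0306 and 0.0451. The duodenum had 0.186 in bin 8, 1.29 in bin 9 and 5.33 in bin 10, where the jejunum had 9.34 and the ileum 12.2. Of all Cldn4 UMIs in these cells, the top zone held 94.8%, 75.3% and 62.5%, while it held 17.3%, 20.5% and 22.0% of all UMIs. A cluster of 426 cells, 367 of them from the ileum, led by Tgm2, Cpn1, Sprr1a, Lama3 and Itgb6, had a Cldn4 level of 9.47 in the jejunum and 16.7 in the ileum.

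**Figure D1:**
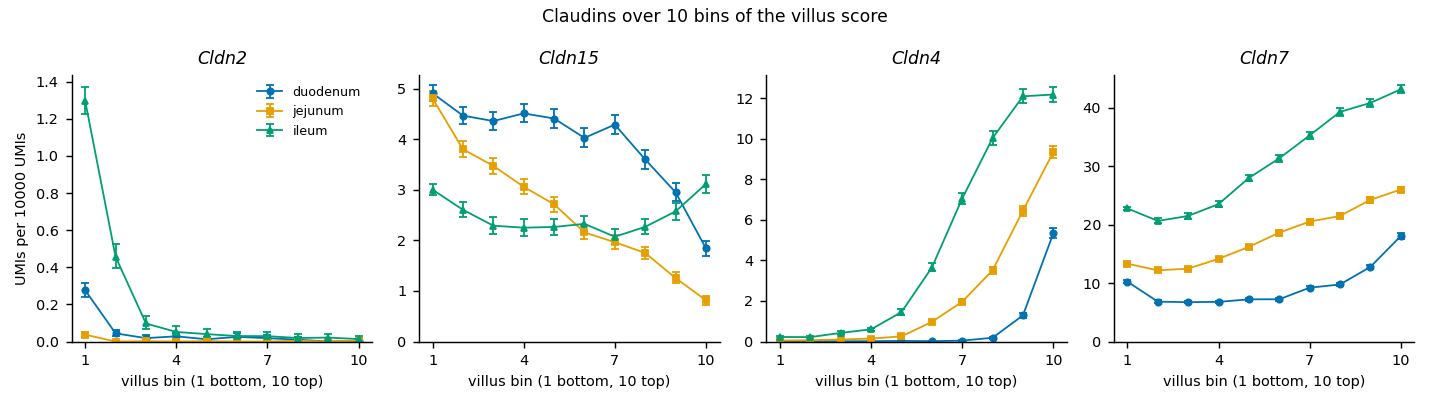
Level of 4 claudins (UMIs per 10000 UMIs, linear axis from 0) over 10 bins of the villus score, from 1 at the bottom to 10 at the top, in enterocyte-lineage cells, 1 line per library with exact Poisson 95% intervals. Cldn4 was at most 0.186 in the duodenum up to bin 8 and reached 7.05 in the ileum by bin 7, while Cldn2 was seen mainly in bin 1.

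Cldn2 ran the other way. Its bottom-zone level was 0.151, 0.0191 and 0.936, and its top-zone level 0.00118, 0.00381 and 0.0149, from 1, 4 and 14 UMIs. Bottom values lay above top values in each library and without overlap between libraries. The log2 fold change was -4.89 ± 0.62 (SE; adjusted p = 5.7e-05 by edgeR, 7.8e-08 to 0.038 across the alternatives). Bin 1 of the 10 alone stood at 0.276, 0.0372 and 1.30, and bin 2 at 0.0441, 0 and 0.457. From zone 2 upward Cldn2 was at most 0.0552, against 0, 0 and 0.0469 in T cells.

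Cldn15, the other channel claudin, did not follow one course. In the duodenum its level was 4.66, 4.43, 4.07 and 2.64 from the bottom to the top zone, against 4.25, 3.0, 2.01 and 1.18 for the jejunum and, for the ileum, 2.83, 2.24, 2.21 and 2.73. The level in the top zone was below that of the bottom zone in the duodenum and the jejunum by more than counting error, while the 2 ileal values lay within it. On the TMM scale of the test the log2 ratios were -0.48, -1.19 and 0.61 (0.54 to 0.69), so that there the ileal top zone was above the bottom zone by more than counting error. The test over the 3 libraries did not call it (log2 fold change -0.30 ± 0.29 SE, edgeR adjusted p = 0.37, 0.0092 to 0.82 across the alternatives). Without the ileum it was called lower (-0.84, adjusted p = 0.0092), and without the jejunum its sign turned (0.09, adjusted p = 0.82). It was also called lower without TMM scaling (-0.86, adjusted p = 0.022). The scaling counts here, since TMM raised the log2 ratio of the top to the bottom zone by 0.34, 0.66 and 0.66 in the 3 libraries, and without it the median of all genes moved from -0.08 to -0.63.

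Cldn3 and Cldn7 were present in all 4 zones. Cldn7 was 8.44, 12.7 and 21.9 in the bottom zone, 6.92, 14.7 and 25.1 in zone 2, 8.43, 19.8 and 34.3 in zone 3 and 14.2, 24.6 and 41.5 in the top zone. It was highest in the top zone of each library, although the groups overlapped between libraries because the ileum was high throughout. The log2 fold change was 1.41 ± 0.19 (SE; edgeR adjusted p = 7.5e-05, 1.2e-13 to 0.096 across the alternatives). Without the library block Cldn7 was not called.

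Cldn3 was lowest in zone 2, with 4.02, 5.07 and 9.96 in the bottom zone, 2.28, 3.57 and 6.19 in zone 2, 2.58, 4.19 and 8.96 in zone 3 and 3.40, 4.39 and 11.6 in the top zone. The top zone lay below the bottom one in the duodenum and the jejunum and above it in the ileum on this scale. The fit called a small rise (log2 fold change 0.47 ± 0.17 SE, edgeR adjusted p = 0.031), which was lost without the jejunum (0.46, adjusted p = 0.17) and without the ileum (0.27, adjusted p = 0.21) and had the opposite sign without TMM scaling (-0.07, adjusted p = 0.67). It was also lost without the library block, where the value was larger (0.62, adjusted p = 0.44), and, with values of 0.43 and 0.39, with unnamed clusters added (adjusted p = 0.051) and without the filter on low genes (adjusted p = 0.079). The value was smaller with at most 20% mitochondrial UMIs (0.36, adjusted p = 0.12), with a ratio score (0.31, adjusted p = 0.12) and between the end bins (0.24, adjusted p = 0.24). A linear trend over the zones was not called either (adjusted p = 0.091). The adjusted p ran from 1.0e-04 to 0.67 across the alternatives.

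Cldn23 had a similar dip. Its level was 0.333, 0.469 and 0.879 in the bottom zone, 0.119, 0.280 and 0.629 in zone 2, 0.136, 0.481 and 1.17 in zone 3 and 0.459, 1.04 and 1.63 in the top zone. The top zone was higher than the bottom one in all 3 libraries. The log2 fold change was 1.35 ± 0.29 (SE; edgeR adjusted p = 0.0020), and without the jejunum it no longer passed (1.08, adjusted p = 0.063; 1.4e-05 to 0.16 across the alternatives). Without the library block Cldn23 was not called either.

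Ocln and Tjp1 rose together toward the tip. Ocln was 0.494, 0.555 and 0.818 in the bottom zone and 0.807, 1.19 and 2.92 in the top zone, with a log2 fold change of 1.78 ± 0.23 (SE; edgeR adjusted p = 7.0e-05, 1.5e-11 to 0.015 across the alternatives). Tjp1 was 0.234, 0.279 and 0.452 in the bottom zone and 0.370, 0.471 and 1.02 in the top zone, with a log2 fold change of 1.42 ± 0.17 (SE; edgeR adjusted p = 3.9e-05, 4.2e-12 to 0.035 across the alternatives). For both genes zone 2 was close to the bottom zone in each library. Its levels were 0.469, 0.553 and 0.899 for Ocln and 0.208, 0.244 and 0.455 for Tjp1. The difference lay above zone 2. For Tjp1 in the duodenum it lay in the top zone alone, which held 25.9% of its UMIs against 17.3% of all UMIs. Zone 3 of that library held 19.2% against 22.0%.

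**Figure D2:**
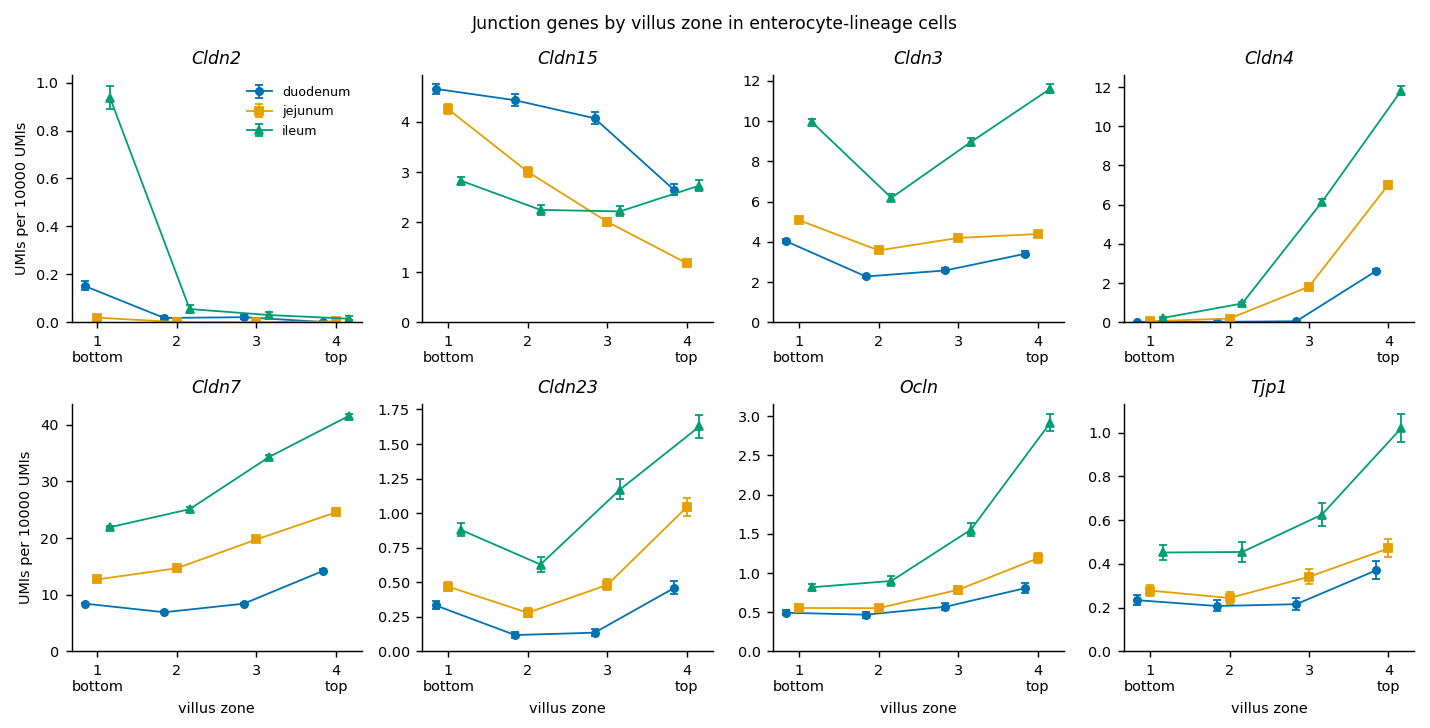
Level of the 8 genes (UMIs per 10000 UMIs, linear axes from 0) by villus zone, from 1 at the bottom to 4 at the top, 1 line per library with 95% Poisson intervals. Cldn4 climbed to 2.61, 7.03 and 11.8 in the top zone, Cldn2 was seen mainly in the bottom zone, and Cldn15 declined from zone to zone in the duodenum and the jejunum, while in the ileum it was lower in zones 2 and 3 than at both ends.

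Of 75 further junction genes, 43 were tested along the villus, and 31 of them were higher and 2 lower at the top, against 32.7% higher and 35.7% lower among all genes, with a median log2 fold change of 1.2. Without TMM scaling 24 were higher and 7 lower, against 17.9% and 52.2% of all genes. The largest rises were in Dsp, which encodes the desmosomal linker desmoplakin (2.54 ± 0.27 SE, edgeR adjusted p = 2.0e-05), and in the polarity gene Pard6b (2.53 ± 0.20 SE, edgeR adjusted p = 3.8e-06). St14, the protease matriptase, followed with 2.46 ± 0.24 (SE), the desmosomal genes Pkp3 and Dsc2 with 2.20 ± 0.22 and 2.15 ± 0.24, and Mpp5, which encodes the Crumbs complex scaffold PALS1, with 2.11 ± 0.23 (edgeR adjusted p between 1.1e-05 and 2.5e-05). Dsp went from 0.773, 1.10 and 1.57 in the bottom zone to 2.39, 6.47 and 5.65 in the top zone. The 2 genes that fell were the plakin Ppl (-1.35 ± 0.35 SE, edgeR adjusted p = 0.0058) and the scaffold Magi1 (-0.89 ± 0.22 SE, edgeR adjusted p = 0.0041). No gene of the list approached the size of the change in Cldn4 or, downward, in Cldn2.

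**Figure D3:**
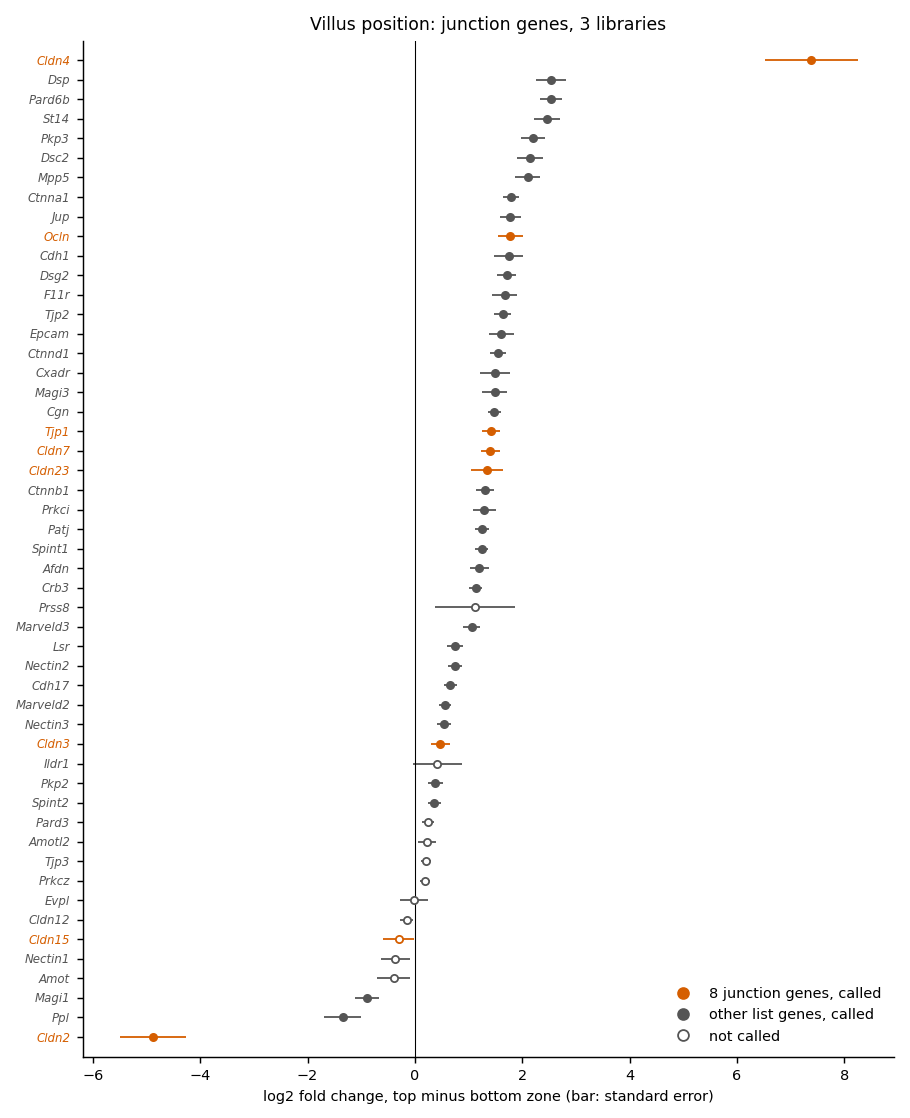
Log2 fold change (horizontal axis) of the top minus the bottom villus zone for the 8 genes and the 43 other junction genes tested, from 3 libraries with the library as a block. Bars are standard errors, filled points passed an edgeR adjusted p of 0.05, and Cldn4 at 7.38 and Cldn2 at -4.89 lie outside the range of the others.

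The second comparison set the classes against enterocytes in 1 fit over 18 sums with the library as a block. Goblet, tuft and enteroendocrine cells were not matched to enterocytes for their place on the villus. Early enterocytes were part of the villus zones, with their median in zone 1 in each library. Dmbt1, Gsdmc4, Prss32, Nlrp6, Ccl25 and Il18 served both to name them and as bottom genes of the score. Their comparison with enterocytes thus repeats the zone comparison in part and is not independent of it. In early enterocytes 3 of the 8 genes differed, 1 higher and 2 lower, against 49.6% of all 11226 genes tested (23.4% higher, 26.2% lower). In ISC/proliferating cells 8 differed, 1 higher and 7 lower (background 70.2%, with 34.3% higher and 35.9% lower), and in goblet cells 3, of which 2 were higher and 1 lower (46.4%, with 21.2% higher and 25.2% lower). In tuft cells 6 were lower (54.0%, with 26.0% higher and 28.0% lower), as were 6 in EECs (60.5%, with 30.1% higher and 30.4% lower). These directions depend on the scaling. Without TMM scaling the median of all genes moved to 0.24, 0.69, -0.07, 0.50 and 0.79 in the 5 comparisons. In ISC/proliferating cells 1 of the 8 genes was then higher and 2 lower (49.2% and 21.3% of all genes), in tuft cells 1 and 4 (40.1% and 16.5%) and in EECs 1 and 2 (50.1% and 15.6%), the higher EEC gene being Cldn4. In early enterocytes 3 were higher and 1 lower (32.2% and 15.5%), and in goblet cells 2 and 1 (20.5% and 24.5%).

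Cldn2 was higher in the young cell classes than in enterocytes. Its level was 1.01, 0.469 and 0.795 in ISC/proliferating cells, 0.272, 0.0399 and 1.24 in early enterocytes and 0.0166, 0.00138 and 0.101 in enterocytes. ISC/proliferating cells lay above enterocytes without overlap (log2 fold change 4.54 ± 0.76 SE, edgeR adjusted p = 4.9e-05, up to 0.016 across the alternatives). Early enterocytes lay above enterocytes within each library (3.44 ± 0.69 SE, edgeR adjusted p = 0.00055, up to 0.033 across the alternatives). The gap between the 2 young classes depended on the segment: in the jejunum early enterocytes had 31 UMIs of Cldn2 in all, and in the ileum their level exceeded that of ISC/proliferating cells. The difference between the classes was not called (1.10 ± 0.70 SE, edgeR adjusted p = 0.20). Goblet cells with 0.0836, 0 and 0.0513, tuft cells with 0, 0 and 0.0879 and EECs with 0.215, 0.102 and 0.0766 stood on 0 to 26 UMIs a library, and T cells on 0, 0 and 25. With 0 UMIs, the limit of 3 counts allows up to 0.0160 in jejunal goblet cells.

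Cldn15 was lowest in tuft cells and EECs. Its level was 4.00, 2.45 and 2.42 in enterocytes, 4.71, 4.86 and 3.01 in early enterocytes, 2.91, 2.77 and 2.73 in ISC/proliferating cells and 2.88, 2.33 and 1.79 in goblet cells. Tuft cells had 0.626, 0.407 and 0.431 and EECs 0.760, 0.306 and 0.358, which is about the level in T cells of 1.11, 0.315 and 0.469. Tuft cells (-3.15 ± 0.23 SE, edgeR adjusted p = 1.0e-08) and EECs (-3.38 ± 0.24 SE, edgeR adjusted p = 7.5e-09) lay below enterocytes without overlap, under each alternative up to an adjusted p of 1.9e-05. ISC/proliferating cells were called lower as well (-0.79 ± 0.20 SE, edgeR adjusted p = 0.0020), but not without TMM scaling (-0.02, adjusted p = 0.92) or with each cell thinned at random to 800 UMIs (-0.30, adjusted p = 0.44), called thinned cells from here on.

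Among the classes as a whole, Cldn4 was highest in goblet cells. Its level there was 1.35, 7.15 and 9.91, against 0.572, 2.24 and 5.35 in enterocytes, higher within each library (log2 fold change 1.26 ± 0.29 SE, edgeR adjusted p = 0.0017, 2.1e-06 to 0.41 across the alternatives, the last without the library block). EECs had 1.17, 4.22 and 6.57 and were not called against enterocytes (-0.05 ± 0.29 SE, edgeR adjusted p = 0.91). Their value was 0.75 (adjusted p = 0.035) without TMM scaling. Tuft cells (0.0338, 0.601 and 0.615) and ISC/proliferating cells (0.0881, 0.259 and 0.95) were called lower than enterocytes (log2 fold change -3.23 ± 0.35 and -3.45 ± 0.33 SE, edgeR adjusted p = 9.1e-07 and 1.0e-07), against T cell levels of 0, 0.215 and 0.635. Early enterocytes were lower still, with 0.0273, 0.0644 and 0.270 (-4.88 ± 0.35 SE, edgeR adjusted p = 4.0e-08).

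Cldn3 and Cldn7 were seen in each of the 6 classes. Cldn3 was higher in goblet cells (6.14, 8.11 and 11.2) than in enterocytes (2.62, 3.83 and 8.35), with a log2 fold change of 0.85 ± 0.23 (SE; edgeR adjusted p = 0.0052), which was lost without the jejunum (0.78, adjusted p = 0.13) and without the library block (0.77, adjusted p = 0.11). ISC/proliferating cells had 4.22, 4.30 and 6.17 and were called lower (-0.66 ± 0.23 SE, edgeR adjusted p = 0.016), but not without the jejunum (-0.65, adjusted p = 0.15) or the ileum (-0.27, adjusted p = 0.35), and the sign turned without TMM scaling (0.11). EECs had 2.66, 3.03 and 3.99 and were called lower (-1.29 ± 0.23 SE, edgeR adjusted p = 0.00015), but not without TMM scaling (-0.49, adjusted p = 0.077) or in thinned cells (-0.79, adjusted p = 0.051), and the unscaled duodenal level differed from that of enterocytes by less than counting error. T cells had 1.11, 0.447 and 1.30. Tuft cells had 9.11, 8.59 and 9.63, above all 3 enterocyte values, yet the fit gave 0.44 ± 0.23 (SE; edgeR adjusted p = 0.11), with 1.05 (adjusted p = 0.0011) without TMM scaling and 0.92 (adjusted p = 0.0060) without the ileum.

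Cldn7 in tuft cells stood at 14.5, 13.7 and 13.8, while enterocytes had 8.86, 17.9 and 31.4. The tuft cell level was thus above that of enterocytes in the duodenum and below it in the jejunum and the ileum. The fit called it lower (-0.92 ± 0.28 SE, edgeR adjusted p = 0.010), but not without the jejunum (-0.90, adjusted p = 0.13) or without the ileum (-0.44, adjusted p = 0.25). ISC/proliferating cells had 11.6, 12.2 and 13.3 (-1.28 ± 0.28 SE, edgeR adjusted p = 0.00065) and EECs 8.46, 12.2 and 18.6 (-1.31 ± 0.28 SE, edgeR adjusted p = 0.00065). Neither passed without TMM scaling (-0.50 in both, adjusted p = 0.11 and 0.12), nor did tuft cells (-0.31, adjusted p = 0.37), and the unscaled level of duodenal ISC/proliferating cells was above that of duodenal enterocytes. Goblet cells had 8.99, 11 and 13.2 (-0.72 ± 0.28 SE, edgeR adjusted p = 0.041), a call lost without the jejunum (-0.68, adjusted p = 0.28), without the ileum (-0.39, adjusted p = 0.33) and without the library block (-0.83, adjusted p = 0.11). T cells held 3.12, 1.67 and 4.33.

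Ocln was lowest in tuft cells, with 0.203, 0.248 and 0.352 against 0.564, 0.750 and 1.61 in enterocytes (-2.37 ± 0.28 SE, edgeR adjusted p = 2.2e-06, up to 0.00068 across the alternatives), without overlap. T cells had 0.212, 0.0331 and 0.191. EECs (0.696, 0.443 and 0.60) were called lower (-1.40 ± 0.26 SE, edgeR adjusted p = 0.00021), and so were ISC/proliferating cells (-1.24 ± 0.24 SE, edgeR adjusted p = 0.00021) and early enterocytes (-0.75 ± 0.23 SE, edgeR adjusted p = 0.012), the last not without the jejunum (-0.88, adjusted p = 0.079) or the ileum (-0.43, adjusted p = 0.18), nor without TMM scaling (-0.41, adjusted p = 0.14). In thinned cells the calls in EECs (-0.89, adjusted p = 0.18) and ISC/proliferating cells (-0.49, adjusted p = 0.37) were lost, the latter also without TMM scaling (-0.47, adjusted p = 0.075). On the unscaled values the duodenal levels of both classes differed from that of duodenal enterocytes by less than counting error.

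Tjp1 was 0.243, 0.319 and 0.654 in enterocytes and 0.266, 0.40 and 0.422 in goblet cells (-0.12 ± 0.24 SE, edgeR adjusted p = 0.72). It was called lower in ISC/proliferating cells (0.248, 0.319 and 0.259; -1.24 ± 0.26 SE, edgeR adjusted p = 0.00039), in tuft cells (0.237, 0.354 and 0.272; -1.04 ± 0.28 SE, edgeR adjusted p = 0.0048) and in EECs (0.418, 0.306 and 0.383; -0.78 ± 0.28 SE, edgeR adjusted p = 0.022). Without TMM scaling none of the 3 passed (-0.48 with an adjusted p of 0.12, -0.46 with 0.19 and 0.02 with 0.97). Without the ileum the values were -0.48 (adjusted p = 0.21) in tuft cells and -0.18 (adjusted p = 0.64) in EECs, and without the jejunum the value in EECs was -0.87 (adjusted p = 0.077). Cldn23 was lower in ISC/proliferating cells (-1.71 ± 0.40 SE, edgeR adjusted p = 0.0011), tuft cells (-1.74 ± 0.44 SE, edgeR adjusted p = 0.0031) and EECs (-1.62 ± 0.44 SE, edgeR adjusted p = 0.0042), with 1 to 56 UMIs a library in these classes. The Cldn23 calls were lost in thinned cells for ISC/proliferating cells (-0.72, adjusted p = 0.26) and EECs (-0.59, adjusted p = 0.44), without TMM scaling for EECs (-0.81, adjusted p = 0.11), and without the library block for tuft cells (adjusted p = 0.079) and EECs (adjusted p = 0.096).

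**Figure D4:**
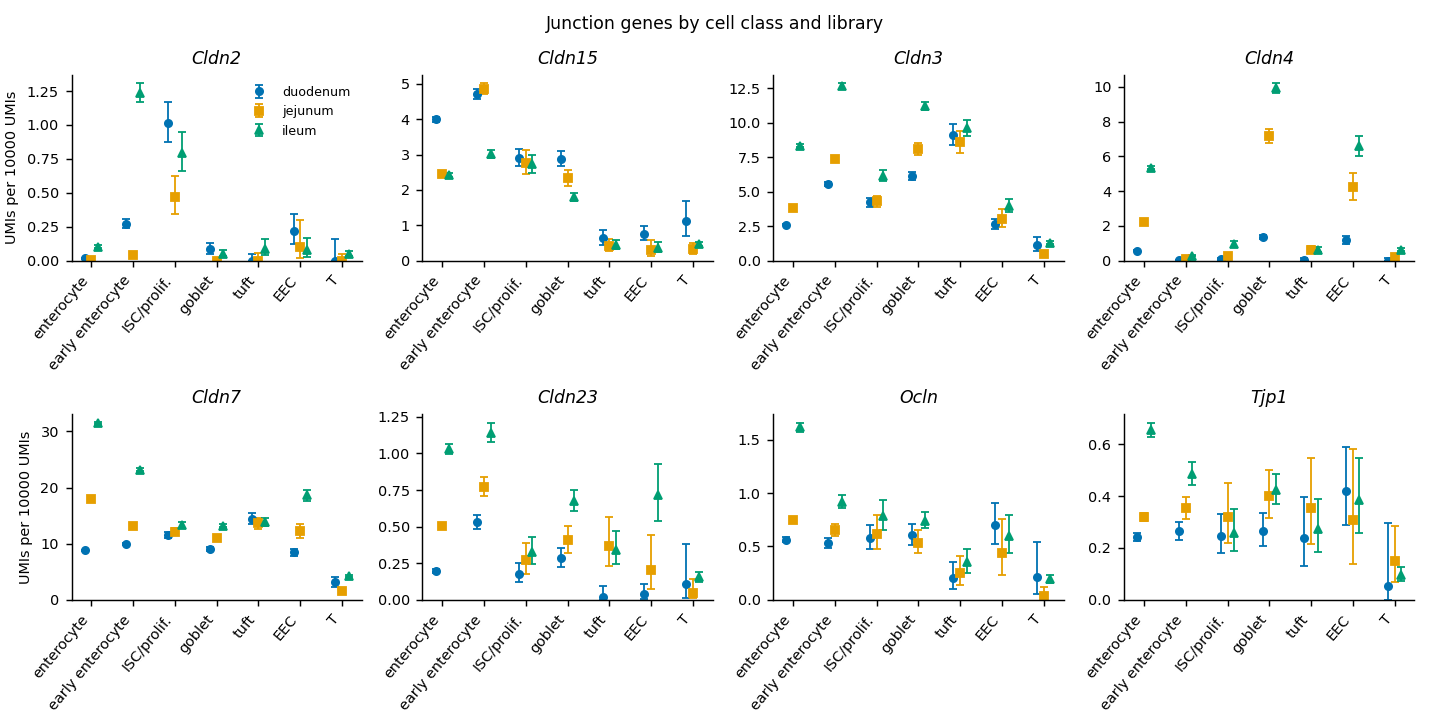
Level of the 8 genes (UMIs per 10000 UMIs, linear axes from 0) in 6 epithelial classes and in T cells, 1 point per library with exact Poisson 95% intervals. Cldn15 in tuft cells and EECs sat at the level of T cells, Cldn4 was highest in goblet cells, and Cldn3 and Cldn7 in tuft cells were nearly the same in the 3 libraries.

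The other junction genes were more often lower than higher outside enterocytes. The shares of all genes called, given above by class, are the background here as well. Of 45 tested, 1 was higher and 27 lower in early enterocytes, 3 and 35 in ISC/proliferating cells, 5 and 19 in goblet cells, 6 and 27 in tuft cells and 3 and 31 in EECs. Without TMM scaling these counts were 2 and 17, 4 and 25, 5 and 19, 11 and 19, and 8 and 26. The median log2 fold change was -0.71, -1.34, -0.46, -0.86 and -1.58, and that of all genes lay between -0.09 and -0.01. In goblet cells 21 genes were not called, and the called share was 53.3% against 46.4% of all genes. Mpp5 fell by 1.92 ± 0.18, 2.90 ± 0.20 and 1.92 ± 0.18 (SE) in the first 3 of these classes (edgeR adjusted p at most 3.2e-07). In tuft cells the lowest were the adhesion receptor Cxadr (-2.94 ± 0.23 SE), St14 (-2.76 ± 0.23 SE) and Nectin3 (-2.59 ± 0.19 SE; edgeR adjusted p at most 4.3e-08). In EECs the lowest were Pard6b (-3.73 ± 0.41 SE), Dsc2 (-3.50 ± 0.32 SE) and St14 (-3.0 ± 0.24 SE; edgeR adjusted p at most 8.7e-07).

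A few junction genes had higher levels in tuft cells or EECs than in enterocytes. Ildr1, a protein of the contacts where 3 cells meet, was 1.56, 1.95 and 2.28 in tuft cells, 0.253, 0.443 and 0.549 in EECs and 0.00272, 0.00323 and 0.0276 in enterocytes (log2 fold change 7.44 ± 0.60 SE and 4.76 ± 0.64 SE, edgeR adjusted p = 3.2e-08 and 7.7e-06). Cldn14 was counted with 8, 8 and 18 UMIs in 301 tuft cells and with 2 UMIs in all enterocytes (8.33 ± 0.78 SE, edgeR adjusted p = 4.5e-07), and tuft cells held 34 of its 42 UMIs in all kept cells. Cldn18 had 12, 12 and 3 UMIs in tuft cells and 3 in enterocytes (8.30 ± 1.06 SE, edgeR adjusted p = 2.2e-05). It was also called in ISC/proliferating cells (6.33 ± 1.09 SE, edgeR adjusted p = 0.00017), where all 32 UMIs came from the duodenum. The plakin Ppl was 0.367, 0.408 and 0.575 in EECs and 0.00816, 0.0173 and 0.0249 in enterocytes (4.09 ± 0.39 SE, edgeR adjusted p = 1.8e-07). Fitted fold changes of genes with this few counts in enterocytes depend on the prior count. Cldn14 passed the filter on low genes only through its tuft cell sums. Cldn18 passed it through tuft cell sums and the duodenal ISC/proliferating sum. Their adjusted p therefore add no support beyond the counts.

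Further genes of the list that moved most were, upward, Ppl in early enterocytes (1.2 ± 0.35 SE, edgeR adjusted p = 0.0095), Amot (1.82 ± 0.34 SE) and Prss8 (1.01 ± 0.39 SE) in ISC/proliferating cells, and Ildr1 (2.86 ± 0.61 SE), Nectin1 (2.08 ± 0.41 SE) and the protease gene Prss8 (1.64 ± 0.37 SE) in goblet cells. Downward they were Dsp (-1.68 ± 0.24 SE) and Pard6b (-1.65 ± 0.26 SE) in early enterocytes, Patj (-2.42 ± 0.26 SE) and Spint1 (-2.41 ± 0.21 SE) in ISC/proliferating cells, and Evpl (-2.84 ± 0.48 SE) and Amotl2 (-2.05 ± 0.49 SE) in goblet cells. All passed edgeR's adjusted p of 0.05, with 0.027 as the highest. Cldn14 in EECs (4.71 ± 1.32 SE, edgeR adjusted p = 0.0063) rests on 3 UMIs.

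The ISC/proliferating cluster needs care. Mast cell markers were its second-best list, Mcpt1 was among its leading genes, and T cell markers took 0.158% of its UMIs in the ileum against 0.00678% in ileal enterocytes. Their part in its junction gene levels was not tested. In the 3 libraries it had 78, 55 and 91 cells.

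The third comparison placed the segments side by side, with 1 library each and no test. In enterocytes 7 of the 8 genes were highest in the ileum, as were 42.8% of all 11147 genes compared, and Cldn15 was highest in the duodenum. The ratio of ileum to duodenum was 9.35 for Cldn4, 6.11 for Cldn2, 5.24 for Cldn23, 3.55 for Cldn7, 3.19 for Cldn3, 2.86 for Ocln, 2.69 for Tjp1 and 0.606 for Cldn15. On the log2 scale these were 3.23, 2.61, 2.39, 1.83, 1.67, 1.52, 1.43 and -0.72. With mitochondrial UMIs left out of the total, they were 2.97, 2.36, 2.14, 1.57, 1.42, 1.26, 1.17 and -0.98, so the order of the 2 segments held for each gene. The median log2 ratio of all genes was -0.05, and -0.30 without mitochondrial UMIs. On that second total 29.8% of all genes were highest in the ileum. The enterocyte class was not made up alike in the segments. The cluster led by Slc2a2 had 1246 duodenal and 561 ileal cells, the one led by Pck1 41 and 265, and the one led by Tgm2 9 and 367, and the last held 6789 of the 17430 Cldn4 UMIs of ileal enterocytes. Within clusters the Cldn4 difference was both smaller and larger than in the class as a whole. The level was 7.45 in the duodenum and 13.2 in the ileum in the cluster led by Nt5e and 1.71 and 7.17 in the one led by hemoglobin genes, against 0.0906 and 1.28 in the cluster of 1558 cells and 0.0180 and 0.256 in one of 1944 cells, the 0.0180 resting on 7 UMIs. The jejunum lay between the 2 ends for 7 genes, with Cldn15 close to the ileum, and its Cldn2 level was the lowest of the 3.

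The size of the difference depended on the class. For Cldn7 the log2 ratio of ileum to duodenum was 1.83 in enterocytes (counting interval 1.81 to 1.84), 1.23 in early enterocytes (1.19 to 1.26), 1.14 in EECs (1.01 to 1.27), 0.56 in goblet cells (0.49 to 0.63), 0.20 in ISC/proliferating cells (0.12 to 0.29) and -0.06 in tuft cells (-0.19 to 0.06). Cldn3 had the same order at its ends, with 1.67 in enterocytes (1.64 to 1.71) and 0.08 in tuft cells (-0.07 to 0.23). Cldn4 was higher in the ileum in each of the 6 classes, from 2.49 in EECs (2.17 to 2.83) to 4.19 in tuft cells (2.28 to 7.26), where the duodenum had 2 UMIs. T cells of the ileum also held Cldn4, with 339 UMIs against 0 in 35 duodenal T cells, and the part of free RNA in these ratios was not tested.

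Cldn2 was higher in the ileum than in the duodenum in enterocytes (log2 ratio 2.61, 2.23 to 3.01) and early enterocytes (2.18, 1.98 to 2.39), but not in ISC/proliferating cells (-0.35, -0.68 to -0.02). On few UMIs, the ileal level was also below the duodenal one in goblet cells (22 duodenal and 26 ileal UMIs) and EECs (17 and 6). In tuft cells it was above it (0 and 10). Cldn15 was lower in the ileum in early enterocytes (-0.64, -0.71 to -0.58), enterocytes (-0.72, -0.76 to -0.68) and goblet cells (-0.69, -0.83 to -0.54), and within counting error of the duodenum in ISC/proliferating cells (-0.09, -0.28 to 0.09). In EECs and tuft cells, at about the level of T cells, the ileal level was also below the duodenal one. The same held in T cells. By zone, the Cldn15 ratio of ileum to duodenum was 0.606, 0.506, 0.543 and 1.03 from the bottom to the top, and within the top zone the order was not uniform. In bin 9 of the score the level was 2.95 in the duodenum and 2.57 in the ileum, and in bin 10 it was 1.84 and 3.11. Of the 2 clusters with their median in zone 4 in each library, the one led by hemoglobin genes had 2.66 and 2.59, within counting error of each other, and one of 1008 cells led by Nt5e and Ada had 1.27 and 3.32. The Cldn4 log2 ratio by zone was 3.34 (2.85 to 3.87), 5.51 (4.96 to 6.12), 6.86 (6.49 to 7.26) and 2.18 (2.11 to 2.25), the duodenal levels of the lower 3 zones resting on 37, 27 and 57 UMIs. The ileal level of the bottom zone, 0.219, was below that of ileal T cells, so that its ratio cannot be told apart from one of free RNA.

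**Figure D5:**
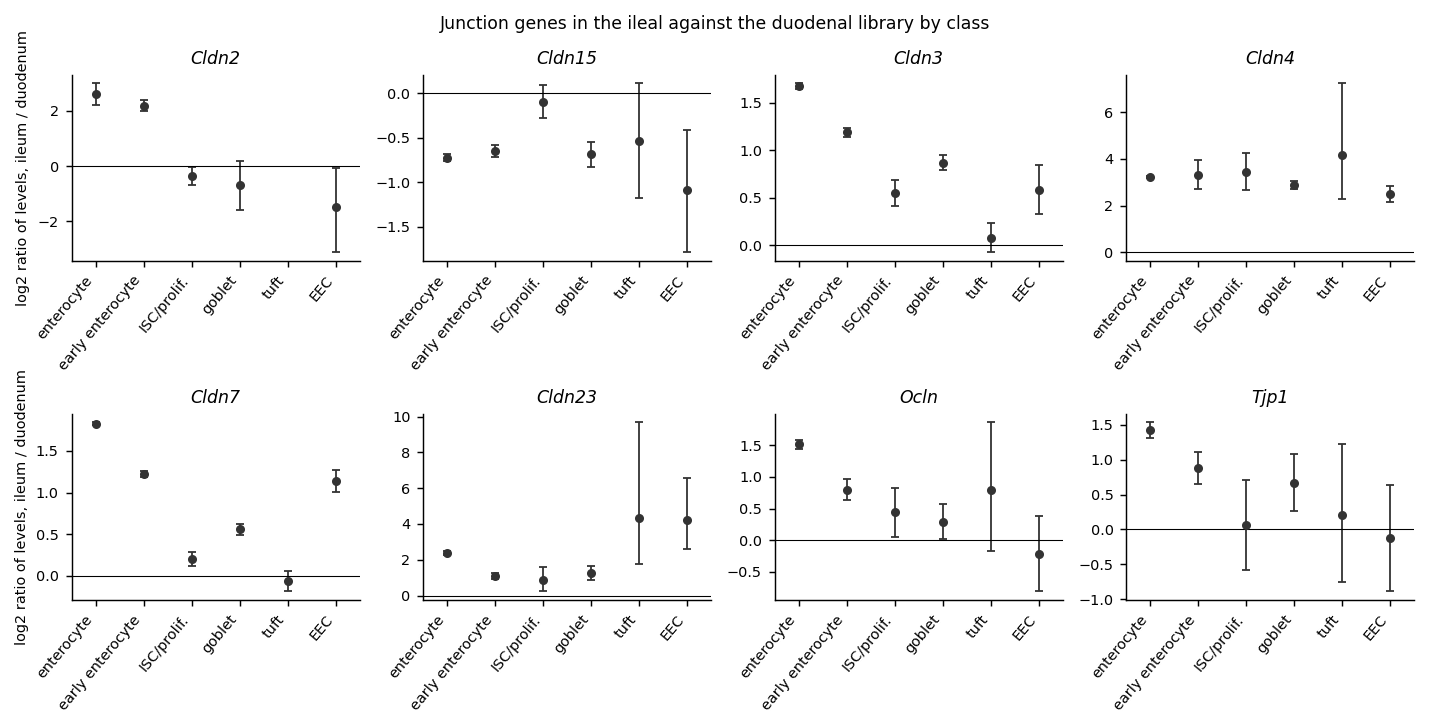
Log2 ratio of the level in the ileal to that in the duodenal library for each gene in 6 epithelial classes, with exact 95% counting intervals and the line at 0 for equal levels (vertical scales differ between genes, and Cldn2 in tuft cells has no duodenal UMIs). Cldn7 ran from 1.83 in enterocytes to -0.06 in tuft cells, while Cldn4 was above 2 in every class.

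The genes whose pattern over the 18 class-by-library sums was most like that of each gene, by Pearson's r of log2 CPM after taking off library means, were Top1mt (0.90) and Gpx2 (0.90) for Cldn2, Txn1 (0.97) and Glo1 (0.96) for Cldn15, Gng5 (0.92) and Spint2 (0.92) for Cldn3, Nsd3 (0.95) and Tppp3 (0.94) for Cldn4, Ubxn2a (0.94) and Tradd (0.94) for Cldn7, Cables1 (0.90) and Vmp1 (0.90) for Cldn23, Tbc1d15 (0.94) and Sh3d19 (0.93) for Ocln, and Cd82 (0.93) and Hdlbp (0.92) for Tjp1. Gpx2 is itself a marker used to name early enterocytes, and Spint2, an inhibitor of membrane proteases, belongs to the junction list. Among the 8 genes, Ocln was most like Cldn15 (0.80) and Tjp1 (0.78), and Cldn2 and Cldn3 were least alike (-0.36). The sums share libraries and scaling, and these values are descriptions.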

How the data were processed

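Single-cell RNA was measured in 3 libraries (duodenum, jejunum, ileum), from epithelial cells pooled from 3 mice, with 3′ chemistry that counts UMIs. The deposited values were raw UMI counts per gene and cell, which the authors made with Cell Ranger 3.0.2 on mm10 (GRCm38), per the labels' processing notes. They held 98518847, 87656078 and 78074516 UMIs. Reads of near-identical or overlapping genes could be split or lost in that counting.

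Kept barcodes had 200 to 6000 genes, 800 to 50000 UMIs and a mitochondrial share of no more than 40%. Clusters were made in Seurat 5.3.0 (2000 variable genes without 83 junction genes, 30 components, resolution 0.8) and named from marker lists by a rule set with the clusters in view (a mean relative marker level of at least 0.4, at least 3 markers detected). Scrublet in scanpy 1.11.5 called 0, 0 and 146 doublets, so that leaving them out tests little, and they were kept. Counts were summed per library and class or villus zone (4 zones of equal cell number), and sums of at least 10 cells were tested with edgeR 4.0.16 (R 4.3.3), by the quasi-likelihood test with TMM scaling, the library as blocking factor and p-values adjusted over all genes tested (Benjamini-Hochberg, threshold 0.05). Cells are not replicates, and the libraries, which are different segments, served as the replicates of a class or zone. The block takes out the level of each library, so the p-values measure how differences between groups vary across these 3 libraries. All groups of a fit share this spread. The libraries may come from the same 3 mice, so the p-values do not measure the spread between animals. The members and lists, and the rule to name the junction genes with the largest changes past the threshold, were chosen with earlier results of these data known. The fits were also run on simulated counts, and no value given here rests on those runs. Python 3.11.15 computed levels, exact Poisson and binomial intervals at 95% and, for 0 counts, the limit of 3 counts, all of which cover counting error only. Gene positions came from GENCODE M21, which held 31011 of the 31053 identifiers. Promoter sequences came from RefSeq (32851 promoters on GRCm38.p6), with 7 of the 8 genes matched. Alternatives were DESeq2 1.42.0 size factors and other choices of scaling, cells, clusters and libraries.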

Additional observations from a re-analysis of the deposited data

Results flagged for a closer look

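In 3 comparisons a class lay on opposite sides of enterocytes in different segments by more than counting error, both on the unscaled levels and after TMM scaling, and they were singled out for this. On the unscaled levels alone the signs were also opposite by more than counting error for Cldn15, Cldn3 and Cldn7 in ISC/proliferating cells, Cldn7 in early enterocytes, Tjp1 in EECs and Cldn3 along the villus. On the TMM scale alone they were so for Cldn3 in tuft cells, Cldn23 in early enterocytes, Cldn7 in goblet cells, Cldn2 and Cldn4 in EECs and Cldn15 along the villus. With 1 library a segment, the differences between segments were not tested.

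Cldn2 in goblet cells had a log2 ratio to enterocytes of 2.34 in the duodenum and -0.98 in the ileum, from 22 and 26 goblet cell UMIs. Cldn23 in goblet cells had 0.54 in the duodenum and -0.60 in the ileum. Cldn7 in tuft cells had duodenal, jejunal and ileal log2 ratios of 0.71, -0.39 and -1.18, while the tuft cell level itself was 14.5, 13.7 and 13.8 UMIs per 10000 and that of enterocytes 8.86, 17.9 and 31.4. Depth and mitochondrial share also differed between these libraries, and their part in the ratios was not tested.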

How the results depend on the processing

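Over 48 comparisons of the 8 genes and 866 values from alternatives, 764 kept their direction and side of the threshold, 59 lost the call, 23 gained one and 20 turned in sign. Without the library as a replicate block, 4 of 8 genes passed along the villus (7 with it), with the share of all genes called going from 68.4% to 41.5%, and 0 in goblet cells (3 with it, all genes from 46.4% to 37.7%; 0 of 8 at an unadjusted p under 0.05 by edgeR without the block). Leaving out 1 library gave 5 to 7 genes along the villus, 2 to 4 in early enterocytes, 7 to 8 in ISC/proliferating cells, 1 to 4 in goblet cells, 5 to 6 in tuft cells and 5 to 6 in EECs. The share of all genes called moved too, to 50.9% to 65.7% along the villus, 29.6% to 47.3% in early enterocytes, 57.2% to 66.6% in ISC/proliferating cells, 29.7% to 42.2% in goblet cells, 40% to 48.7% in tuft cells and 48.7% to 54.4% in EECs, lowest without the jejunum in each. The lowest goblet count, 1, was without the jejunum. At resolution 1.2, 6 genes passed in early enterocytes (3 at 0.8), against 57.3% and 49.6% of all genes. Without TMM scaling 3 passed in ISC/proliferating cells and 3 in EECs (8 and 6 with it), and in cells thinned to 800 UMIs 3 and 2 of the 7 tested. All genes called were 70.5% and 65.6% without TMM scaling and 54.2% and 44.2% in thinned cells, against 70.2% and 60.5%.

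The signs that turned were, without TMM scaling, Cldn3 along the villus (-0.0740) and in ISC/proliferating cells (0.106), Cldn2 in tuft cells (0.162) and Cldn4 (0.753) and Tjp1 (0.0155) in EECs. Cldn4 in EECs was also positive with DESeq2 size factors (0.144), without mitochondrial genes (0.00735) and without the 10% of cells richest in enterocyte markers (0.0238). Cldn23 in early enterocytes turned in thinned cells (-0.00701), and Cldn2 in tuft cells with at most 20% mitochondrial UMIs (0.234). Leaving out 1 library gave values of both signs for Cldn15 along the villus (-0.836 without the ileum to 0.0933 without the jejunum) and in early enterocytes (-0.0669 without the jejunum to 0.368), Cldn23 in early enterocytes (-0.00457 without the duodenum to 0.747 without the ileum) and goblet cells (-0.531 to 0.118 without the ileum), Tjp1 in goblet cells (-0.287 to 0.247 without the ileum), Cldn2 in goblet cells (-0.569 without the duodenum to 2.45 without the ileum) and EECs (-0.0818 without the duodenum to 3.55 without the ileum), and Cldn4 in EECs (-0.256 to 0.272 without the ileum). Without the cluster led by hemoglobin genes, an alternative chosen after seeing the data, Cldn4 in EECs (0.324) and Tjp1 in goblet cells (0.0118) turned, Cldn7 in goblet cells (adjusted p = 0.091) and Tjp1 in EECs (adjusted p = 0.052) lost the call and Cldn3 in early enterocytes gained one (adjusted p = 0.047). Calls were gained without the ileum by Cldn15 along the villus (adjusted p = 0.0092), Cldn3 in early enterocytes (adjusted p = 0.025) and tuft cells (adjusted p = 0.0060), and by Cldn2 in goblet cells (adjusted p = 0.0066) and EECs (adjusted p = 0.00056), and without the duodenum by Cldn7 in early enterocytes (adjusted p = 0.018) and Ocln in goblet cells (adjusted p = 0.0024). The causes of these changes were not tested. At resolution 0.5, and with junction genes among the variable genes, ISC/proliferating and Paneth cells shared a cluster and gave no value. Cldn2 had the fewest UMIs of the 8 genes, with 2707 in all kept cells, and the limit set by depth was not compared between genes.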
